A study of Oryzias latipes with 18 samples.

Results

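Testes of medaka, a small freshwater fish, were compared between a BPA lineage and a control lineage, with the lineage difference averaged over 3 PFOS concentrations. The comparison used 17 of the 18 libraries of the series: 9 of the BPA lineage and 8 of the control lineage. The BPA lineage descended from embryos kept in bisphenol A (BPA) at 10 µg/L, 4 generations earlier, and the control lineage had no such ancestors. Within each lineage fish were kept for 21 days without PFOS, with PFOS at 0.002 mg/L or with PFOS at 0.02 mg/L, and each of these 6 groups had 3 biological replicates. The strain and age of the fish, and whether a library holds 1 fish or several, are not given in the labels, so p-values measure the spread between these libraries. The labels name 2 lineages and no replicate lines within either. Ancestral BPA and any other difference between the 2 lineages therefore cannot be told apart. The 1 library not used, labelled control lineage PFOS 0.002 mg/L replicate 2, had a summed level of 981113 normalized reads over a list of oocyte and ovary genes, against 4071 to 12987 in the other 17. Its group therefore had n = 2. The genes described are those whose difference kept one direction at all 3 doses: 3449 of 18792 genes tested (18.4%), 1850 higher (9.84%) and 1599 lower (8.51%) in the BPA lineage.

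BPA is a plastics monomer that binds estrogen receptors, and PFOS, perfluorooctane sulfonate, belongs to the fluorinated surfactants that persist in water and tissue. In the fish testis, germ cells develop inside cysts formed by Sertoli cells, from spermatogonia through meiosis to flagellated sperm, and Leydig cells between the cysts make steroids. Developing germ cells are reprogrammed in the chromatin and DNA methylation they carry, which is the setting in which effects of an ancestral exposure on later generations are studied.

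The libraries held 23.7 to 47.7 M reads, and replicates of a group correlated at 0.927 to 0.971 on the log2 scale. No lineage difference was called in depth, normalized total, genes above 0 or mitochondrial share, with adjusted p-values of 0.678 to 0.940 in an exact two-sided permutation test within dose. Testis markers were present in all 17 libraries, with gsdf, a Sertoli cell growth factor of fish, at 15527 to 39868 normalized reads and the male-determining gene dmy at 1465 to 4469. Transcripts of gut, kidney and pancreas marked some control libraries without PFOS, where the summed level of that list was 113154, 11463 and 52034 normalized reads in replicates 1, 2 and 3, against 4209 to 9340 in the other 14. Several results are therefore also given from 15 libraries, without control replicates 1 and 3. In that fit the control group without PFOS is 1 library, assumed to vary like the other groups, so a call lost there can come from fewer libraries alone.

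Few genes were called by limma between the lineages on average. The limma test on log2(value + 1), two-sided with Benjamini-Hochberg adjustment over all 18792 genes, called 9 genes (0.0479%): 6 higher (0.0319%) and 3 lower (0.0160%) in the BPA lineage. Of these, 8 (0.0426%) kept one direction at all 3 doses, 5 higher and 3 lower. At an unadjusted p under 0.05 there were 1619 genes (8.62%), 874 higher (4.65%) and 745 lower (3.96%), and 1028 of the 1619 kept one direction. The average and the signs come from the same group means, so a small p favours equal signs. The counts with one direction among genes picked by p are therefore no separate evidence. The median difference over all genes was -0.007 on the log2 scale. These are whole testes, so fewer cells of a type and less RNA per cell cannot be told apart in any of the differences below. The count moved with the method: edgeR on the reads recovered from the deposited values called 6 genes, and DESeq2 called 158.

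A single gene with a symbol was among the 9, rtn4rl2b, which encodes a reticulon-4 receptor-like protein, in mammals a membrane-anchored relative of the Nogo receptor of neurons. In the BPA lineage rtn4rl2b stood at 218, 165 and 96.3 normalized reads without PFOS, at 29.7, 49.5 and 58.7 at 0.002 mg/L and at 95.1, 35.1 and 118 at 0.02 mg/L. In the control lineage it stood at 21.0, 27.5 and 18.9, at 35.8 and 9.21, and at 8.81, 17.7 and 22.9. The lineages were apart without PFOS and at 0.02 mg/L, and overlapped at 0.002 mg/L, where the first control replicate lay within the BPA range. The average difference in rtn4rl2b was 2.04 ± 0.34 (SE) on the log2 scale, adjusted p = 0.0395, with 2.72, 1.22 and 2.19 at the 3 doses in rising order. A change of that difference with dose was not called (limma F test, adjusted p = 0.455). The call on rtn4rl2b was close to the threshold: it was lost on leaving out any of 12 of the 17 libraries, and edgeR gave an adjusted p of 0.0521, while its difference stayed between 1.70 and 2.35. From the 15 libraries it was 1.94, adjusted p = 0.273.

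Of the same receptor family, rtn4rl1b had a difference of -1.53 ± 0.31, negative at all 3 doses (-0.86, -2.32 and -1.42, adjusted p = 0.112), at a mean of 45.3 normalized reads. The other duplicates rtn4rl1a and rtn4rl2a had differences of 0.49 ± 0.22 and 0.22 ± 0.33, adjusted p of 0.571 and 0.883.

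The other 8 called genes carry an Ensembl identifier with no symbol, and the reference tables used here pair none of these identifiers with a name. The 2 higher and the 2 lower genes whose smallest dose-specific difference was largest are given by identifier, a choice made after their values were seen. ENSORLG00000000970 had the smallest adjusted p of all genes. In the BPA lineage it was read at 1212, 631 and 536 normalized reads without PFOS, at 570, 780 and 1250 at 0.002 mg/L, and at 493, 495 and 35 at 0.02 mg/L. In the control lineage it was read at 181, 243 and 47.0, at 66.1 and 33.5, and at 0, 0.706 and 0. Within each dose every BPA library lay above every control library. The average difference in ENSORLG00000000970 was 4.69 ± 0.50, adjusted p = 0.00112, and it was called in each of the 30 alternative settings tried, with 3.94 to 5.77. The difference was 2.53, 4.10 and 7.43 at the 3 doses in rising order and depended on dose (limma F test, adjusted p = 0.0359). At 0.02 mg/L the control libraries held no more than a single read, so the value there is set by the pseudocount of 1.

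ENSORLG00000025978 was higher in the BPA lineage by 3.81 ± 0.62, adjusted p = 0.0395. Its mean over the 17 libraries was 49.1 normalized reads. Without PFOS it had 229, 7.51 and 67.7 normalized reads against 25.5, 17.8 and 32.1 in the control lineage. At 0.002 mg/L it had 104, 54.8 and 137 normalized reads against 0 and 1.67, and at 0.02 mg/L 109, 40.0 and 6.69 against 0, 0 and 1.47. The groups overlapped without PFOS and were apart at both PFOS doses, where control libraries at or near 0 make the log2 value depend on the pseudocount: with a pseudocount of 5 the average was 2.65, adjusted p = 0.0949. From the 15 libraries it was 3.96, adjusted p = 0.184.

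ENSORLG00000007856 was lower in every BPA library than in every control library used. Its values were 4294, 4154 and 4303, then 4786, 5153 and 5268, then 4958, 4695 and 5071 normalized reads in the BPA lineage with rising dose, and 8299, 8409 and 6010, then 6674 and 8719, then 6071, 5717 and 6431 in the control lineage. The gap lay between 5268 and 5717. The difference in ENSORLG00000007856 was small and tight, -0.57 ± 0.09 (adjusted p = 0.0395), with -0.82, -0.59 and -0.31 at the 3 doses. The control library left out was read at 2090, below all of them, and with it the average was -0.36, adjusted p = 0.926. From the 15 libraries it was -0.63, adjusted p = 0.0499.

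ENSORLG00000018220 was lower by 1.67 on the log2 scale (difference -1.67 ± 0.28, adjusted p = 0.0421), with -1.66, -2.17 and -1.19 by dose. It had 213, 224 and 267 normalized reads against 708, 498 and 1147 without PFOS, 187, 281 and 580 against 1325 and 1505 at 0.002 mg/L, and 576, 216 and 225 against 764, 1161 and 378 at 0.02 mg/L. The lineages overlapped at 0.02 mg/L, where BPA replicate 1 lay above control replicate 3. With all 18 libraries the average was -1.22, adjusted p = 0.863, and with 15 it was -1.48, adjusted p = 0.314.

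The remaining 4 called genes without a symbol were 3 higher, with averages of 1.26 to 3.48, and 1 lower, with -2.86. Their differences without PFOS were small, between -0.11 and 0.26. Those at 0.02 mg/L ran from 1.93 to 6.18 in the higher genes and to -4.59 in the lower one. The gene with 6.18 had 2.94, 0.706 and 0 normalized reads in the control libraries there, so that value depends on the pseudocount. With a pseudocount of 5 its average was 2.78 in place of 3.48. The gene with an average of 1.98 had -0.07 without PFOS and is the called gene that did not keep one direction. From 15 libraries the gene with an average of 1.26 had an adjusted p of 0.358 and the lower gene one of 0.132.

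**Figure D1:**
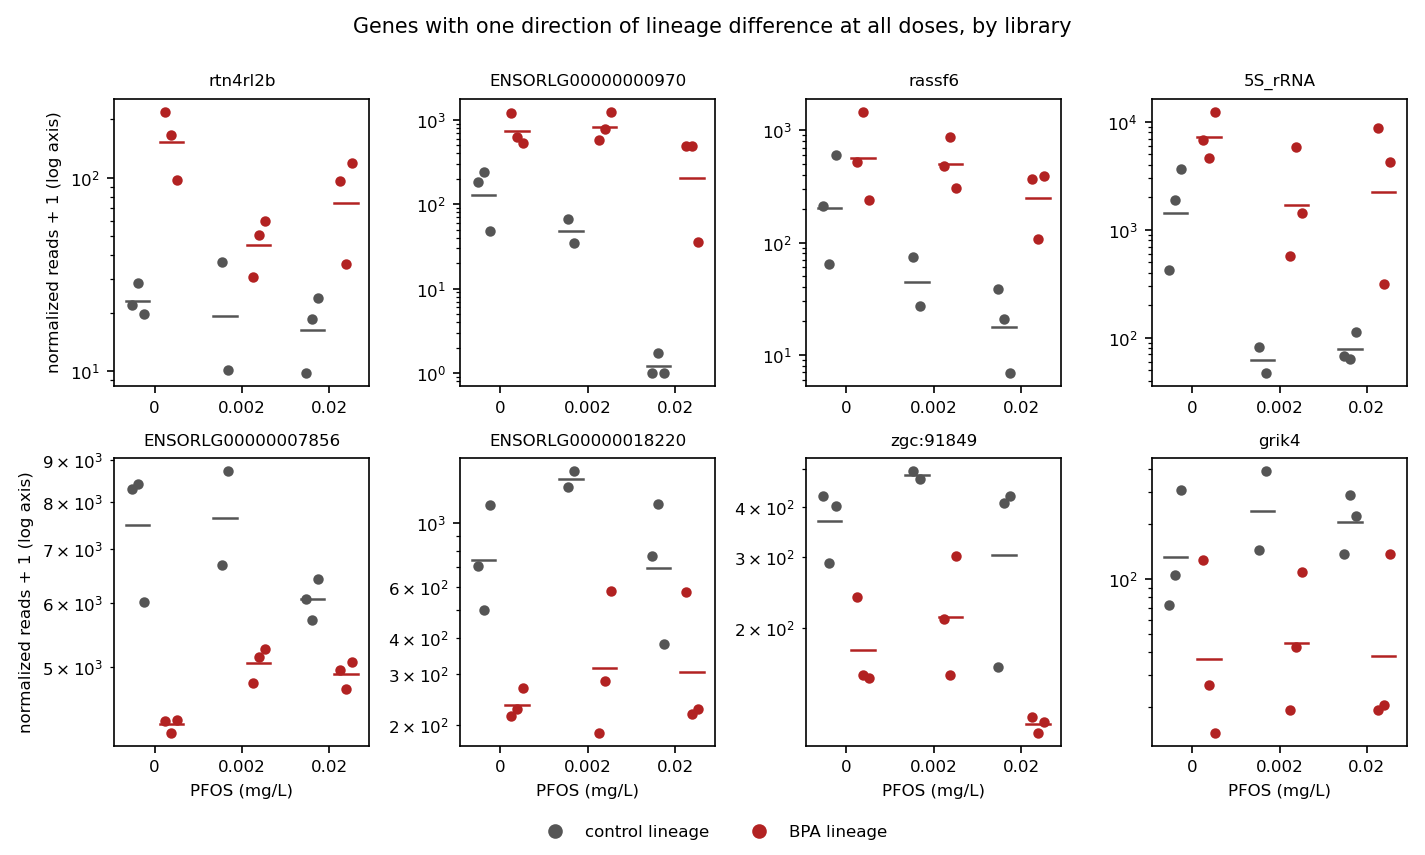
Normalized reads + 1 (log axis) against PFOS concentration for 8 genes with one direction at all doses, each point a library and each bar a group mean of the log values. Red BPA points lie above grey control points in the upper row, with overlap in rtn4rl2b at 0.002 mg/L and in rassf6 without PFOS, and mostly below them in the lower row; rassf6, 5S_rRNA, zgc:91849 and grik4 did not pass the adjusted test.

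Since a single gene with a symbol passed, the 10 genes per direction with the smallest p, a symbol, a mean of at least 50 normalized reads and one direction at all doses are described as well. Apart from rtn4rl2b none of the 20 passed, with adjusted p from 0.0564 to 0.254. Among the positive differences, rassf6 encodes a Ras association domain protein linked in mammals to apoptosis and Hippo signalling. It had 519, 1460 and 238, then 476, 876 and 303, then 364, 107 and 387 normalized reads in the BPA lineage with rising dose, against 209, 63.9 and 603, then 73.1 and 26.0, then 37.2, 19.8 and 5.90 in the control lineage. The groups overlapped without PFOS and were apart at both PFOS doses. The average in rassf6 was 2.93 ± 0.52, adjusted p = 0.0617, and it was 3.48 with adjusted p = 0.0499 from the 15 libraries. In that fit the adjusted p of the other 18 not passing was between 0.184 and 0.576, with 0.345 for 5S_rRNA and 0.364 for zgc:91849.

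One locus of 5S rRNA, an RNA of the large ribosomal subunit made from many near-identical gene copies, had the largest average of the 20. It was read at 6842, 4583 and 12443, then 570, 5806 and 1442, then 8723, 312 and 4213 normalized reads in the BPA lineage with rising dose. The control lineage had 427, 1889 and 3675, then 80.8 and 46.1, then 66.6, 62.8 and 111. The groups were apart at each dose, and at both PFOS doses the control libraries stayed at 111 or below and no BPA library was under 312. The average in this 5S_rRNA locus was 3.98 ± 0.69, adjusted p = 0.0721. The table lists 24 such loci, of which 8 were tested, 2 had an unadjusted p under 0.05 and 1 kept one direction. The 2 most abundant loci had differences of 0.16 and 0.14. How reads were divided among near-identical copies is not given in the sources used here, and the value of any single 5S locus is uncertain for that reason.

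Smaller positive differences were found in genes of several kinds. taf6, a subunit of the general transcription factor TFIID, had 1162 to 2590 normalized reads in the BPA lineage (median 1879) and 824 to 1491 in the control lineage (median 1188), a difference of 0.69 ± 0.15 with adjusted p = 0.159. arrb1, a beta-arrestin that binds activated G protein-coupled receptors, had an average difference of 1.49 ± 0.33 with adjusted p = 0.161. Its difference was 0.10 without PFOS, 3.09 at 0.002 mg/L, where the control group had n = 2, and 1.28 at 0.02 mg/L. c7b, a complement component of the membrane attack complex, showed the same shape, with 0.32, 2.92 and 1.23. A change with dose was called in neither arrb1 nor c7b (limma F test, adjusted p = 0.0727 and 0.148). In c7b the BPA libraries ranged narrowly from 220 to 392 normalized reads, while the control libraries ran from 28.5 to 891. The remaining 4 were etv7, an ETS family transcription factor, at 0.85 ± 0.18, the ankyrin repeat gene ankrd33ba at 1.13 ± 0.25, tmem64 at 0.70 ± 0.15 and si:ch211-122f10.4 at 0.70 ± 0.13, with adjusted p of 0.143, 0.144, 0.132 and 0.0676.

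Among the negative differences zgc:91849 came nearest to the threshold. It had 239, 152 and 149, then 209, 151 and 302, then 119, 109 and 115 normalized reads in the BPA lineage, against 427, 290 and 403, then 491 and 471, then 159, 410 and 426 in the control lineage. At each dose all BPA libraries lay below all control libraries, though ranges overlapped across doses. Its average was -1.21 ± 0.22, adjusted p = 0.0564, with -1.06, -1.18 and -1.40 by dose. grik4, a kainate receptor subunit for glutamate, had the largest negative average of the 20, -2.23 ± 0.54, with a wide spread and adjusted p = 0.241. Its BPA libraries ran from 13.5 to 136 normalized reads (median 25.4) and its control libraries from 71.3 to 389 (median 182).

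The others included regulators of signalling and chromatin. nfkbie, an inhibitor that holds NF-kappaB in the cytoplasm, was at 666 to 1024 normalized reads in the BPA lineage and 879 to 1671 in the control lineage, a difference of -0.47 ± 0.11 with adjusted p = 0.190. kdm2ab, a histone H3 lysine demethylase, was at 1961 to 2666 against 2467 to 3643, a difference of -0.41 ± 0.10 with adjusted p = 0.214. klhl6, a BTB-kelch protein known in mammals from B cells, differed by -1.62 ± 0.34 (adjusted p = 0.139). Its difference was -0.46, -1.54 and -2.85 with rising dose, a change that was not called (limma F test, adjusted p = 0.138). relt, a receptor of the tumour necrosis factor family, differed by -0.88 ± 0.22, and zer1, which recruits proteins to a ubiquitin ligase, by -0.78 ± 0.16, with adjusted p of 0.254 and 0.112. pex19, an import factor for peroxisomal membrane proteins, differed by -0.80 ± 0.20 and the centrosomal gene ssx2ipa by -0.65 ± 0.15. cyp4t8, a cytochrome P450 of family 4, differed by -0.55 ± 0.14. Its difference was -0.71 without PFOS, -0.88 at 0.002 mg/L and -0.05 at 0.02 mg/L, a change that was not called (limma F test, adjusted p = 0.205).

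**Figure D2:**
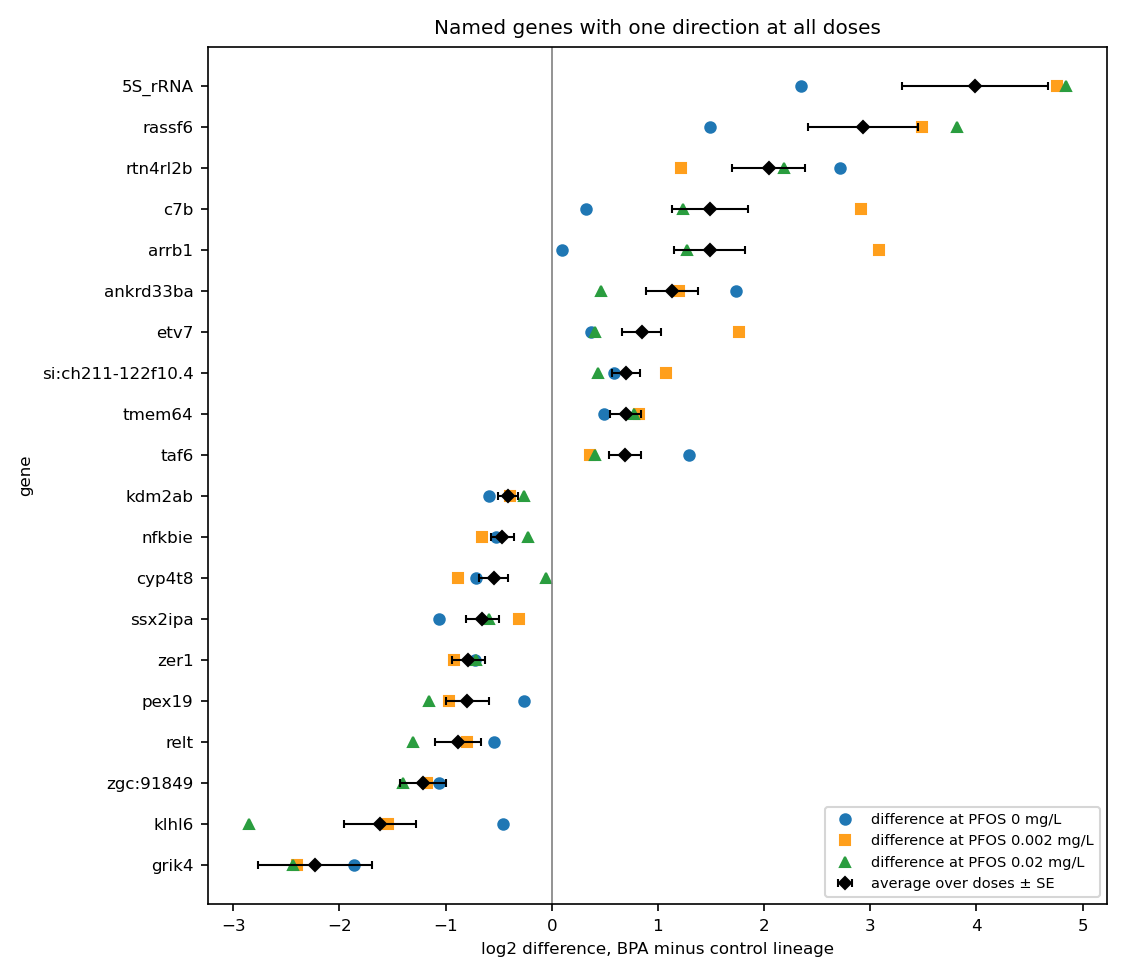
Log2 difference between the BPA and control lineages (x axis) for the 20 genes with a symbol and the smallest p in each direction, with the value at each PFOS dose and the average ± SE. rtn4rl2b alone passed the adjusted test. zgc:91849, zer1 and grik4 have 3 dose values close together. arrb1, c7b and klhl6 have values far apart, although a change with dose was not called in any of them.

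Separation of the libraries themselves was rarer still. In 3 of the 18792 genes (0.0160%) the 9 BPA and 8 control libraries did not overlap, and ENSORLG00000007856 was one of them. retsat, retinol saturase, had 779 to 912 normalized reads in the BPA lineage and 920 to 2911 in the control lineage, a difference of -0.49 ± 0.19 with adjusted p = 0.488. trim55b, a ubiquitin ligase of the muscle sarcomere, had 27.4 to 62.3 against 0.703 to 24.3 normalized reads, a difference of 1.76 ± 0.47 with adjusted p = 0.289. Its mean of 27.8 is below the level set for naming, and it is given because the count was 3. From 15 libraries 18 genes did not overlap, and from all 18 libraries 1.

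The 33 gene lists held no member that passed the adjusted test, so they are described by counts and medians beside all genes. Of 80 cytosolic ribosomal protein genes, 32 kept a positive and 2 a negative difference at all doses, 42.5% against 18.4% of all genes. At an unadjusted p under 0.05 there were 12 positive and 0 negative members by limma. Over all genes these shares were 4.65% and 3.96%. The median difference of the list was 0.15, with 0.34 without PFOS, 0.015 at 0.002 mg/L and 0.15 at 0.02 mg/L, against -0.007 over all genes. Its smallest p belonged to rps25, a small-subunit protein, with 17648 to 35025 normalized reads in the BPA lineage and 11974 to 19997 in the control lineage, a difference of 0.47 ± 0.15 with adjusted p = 0.373. rplp0, of the large-subunit stalk, differed by 0.42 ± 0.14 with adjusted p = 0.375. This list depended on the library left out: with all 18 libraries its median was 0.056 and 6 members kept a positive and 1 a negative difference, while with 15 libraries these were 0.17, 32 and 2.

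Lists of structural and vascular cells also had positive medians on average. Of 60 muscle and matrix genes 12 kept a positive and 5 a negative difference (28.3% against 18.4% of all genes). Their median was 0.22 on average and 0.039, 0.48 and 0.077 at the 3 doses. At an unadjusted p under 0.05 by limma 11 had a positive and 0 a negative difference. Over all genes these shares were 4.65% and 3.96%. pdgfra, the receptor of mesenchymal cells for platelet-derived growth factor, differed by 0.70 ± 0.17 on average (adjusted p = 0.241), and by 1.44 at 0.002 mg/L. Of 21 endothelial genes 7 kept a positive and 3 a negative difference (47.6% against 18.4% of all genes). Their median was 0.22 on average and was negative at 0.02 mg/L (0.48, 0.37 and -0.067 by dose). pecam1, an adhesion molecule of endothelial junctions, differed by 0.70 ± 0.22 with adjusted p = 0.373. By limma 4 endothelial genes had a positive and 1 a negative difference at an unadjusted p under 0.05. The summed level of the endothelial list was 3111 to 5369 normalized reads in the BPA lineage and 3035 to 5402 in the control lineage. For the muscle and matrix list the sums were 33369 to 70044 and 30703 to 57055, so the lineages overlapped in both.

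Among the cells of the testis proper, 4 of 24 Sertoli cell genes kept a positive and 0 a negative difference (16.7% against 18.4% of all genes). The median of that list was 0.17 on average, and -0.21, 0.58 and 0.28 by dose. wt1, a transcription factor of Sertoli cells, had 1091 to 2259 normalized reads in the BPA lineage and 647 to 1165 in the control lineage at its more abundant locus. That wt1 locus differed by 0.54 ± 0.13 (adjusted p = 0.254), with 0.72, 0.69 and 0.21 by dose. The other wt1 locus, at a mean of 55.7 normalized reads, had -0.02, 0.90 and 0.31 and did not keep one direction. Of 19 spermatogonial genes 3 kept a positive and 1 a negative difference (21.1%). Their median was 0.19 on average, with -0.083, 0.37 and -0.061 by dose, and turned to -0.13 with all 18 libraries. The summed level of the list was 8212 to 12616 normalized reads in the BPA lineage (median 10906). In the control lineage this sum was higher, 10094 to 16988 (median 13533), with overlap. ret, the receptor through which the growth factor GDNF maintains spermatogonial stem cells in mice, had an even 2.2, 1.93 and 2.26 at the 3 doses. Its average was 2.13 ± 0.69 with adjusted p = 0.383. Single libraries ran from 53.3 to 515 normalized reads in the BPA lineage and from 3.92 to 224 in the control lineage. By limma 1 spermatogonial gene had a positive and 1 a negative difference at an unadjusted p under 0.05. Over all genes these shares were 4.65% and 3.96%. The negative one is not named here. Of 23 meiosis genes 1 kept a positive and 0 a negative difference (4.35%), of 53 flagellum genes 0 and 6 (11.3%), and of 18 genes of the piRNA pathway, which silences transposons in germ cells, 2 and 0 (11.1%). The flagellum counts were 3 and 1 with all 18 libraries, where the list median turned from -0.061 to 0.28, and 0 and 12 with 15.

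The average difference over 52 nuclear receptors had a median of 0.005, which became slightly negative under TMM scaling, from medians of -0.25, 0.27 and 0.093 at the 3 doses. In that list 8 were positive and 5 negative at all doses (25.0% against 18.4% of all genes). By limma 5 had a positive and 1 a negative difference at an unadjusted p under 0.05, against 4.65% and 3.96% of all genes. The negative receptors are not named here. esr2, an estrogen receptor, had differences of 0.020, 1.58 and 0.66 at the 3 doses, an average of 0.76 ± 0.24 with adjusted p = 0.360. pgr, the progesterone receptor, had 0.70, 1.28 and 0.05, an average of 0.68 ± 0.29 with adjusted p = 0.542. Of 27 Leydig cell and steroid synthesis genes 3 kept a positive and 2 a negative difference (18.5%). scarb1, a receptor for cholesterol-carrying lipoproteins, had negative differences of similar size at each dose (-0.37, -0.56 and -0.48), an average of -0.47 ± 0.14 with adjusted p = 0.349. cyp51, an enzyme of cholesterol synthesis, had the opposite sign, an average of 0.70 ± 0.18 with adjusted p = 0.268, and was largest without PFOS (1.25).

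Epigenetic regulators were listed because ancestral exposure is the question of the study. Of 23 genes that write, erase or read DNA methylation 1 kept a positive and 2 a negative difference (13.0% against 18.4% of all genes). In that list 0 had an unadjusted p under 0.05 by limma, against 8.62% of all genes, and the median was -0.025. Of 78 histone acetylation and methylation enzymes 3 kept a positive and 11 a negative difference, a share of 17.9% and near that of all genes. At an unadjusted p under 0.05 by limma there were 3 and 5, against 4.65% and 3.96% of all genes. The median was -0.050. Beside kdm2ab, enzymes with a negative difference included kat2a, an acetyltransferase of coactivator complexes, at -0.48 ± 0.15 with adjusted p = 0.358. Another was ehmt2, a histone H3 lysine 9 methyltransferase, at -0.33 ± 0.11 with adjusted p = 0.392. The 3 positive ones at an unadjusted p under 0.05 are not named here. Of 88 lysosome and autophagy genes 3 kept a positive and 16 a negative difference (21.6% against 18.4% of all genes). At an unadjusted p under 0.05 by limma there were 0 and 8, against 4.65% and 3.96% of all genes. The median was -0.083. lamp1b, a lysosomal membrane protein, differed by -0.40 ± 0.12 with adjusted p = 0.358.

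Of 100 genes of BMP, activin, TGF-beta and Wnt signalling 18 kept a positive and 8 a negative difference (26.0% against 18.4% of all genes), with a median of 0.075. bmp8a, a ligand of this family, had 0.47, 1.22 and 0.71 by dose, an average of 0.80 ± 0.24 with adjusted p = 0.358. Of 43 leukocyte and blood genes 4 kept a positive and 11 a negative difference (34.9% against 18.4% of all genes). These counts were 4 and 4 with all 18 libraries and 5 and 9 with 15. In that list the median was -0.080 but turned positive with all 18 libraries (0.058) and with 15 (0.045). For gut, kidney and pancreas genes it was -0.25 and became 0.090 with 15 libraries. That list had a median of -1.26 without PFOS, against 0.31 and 0.13 at the other doses.

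The median of 13 of the 33 lists changed sign with all 18 libraries and that of 9 with 15. The other lists are given by members with a positive and with a negative difference at all doses. Among these other lists the share with one direction ran from 5.26% in the p53 and apoptosis list to 29.2% in the junction list, against 18.4% of all genes. Of 66 mitochondrial ribosomal protein genes 9 and 3 kept one direction, of 83 nuclear genes of oxidative phosphorylation 4 and 5, and of 14 mitochondrially encoded mRNAs 1 and 0. Of 82 cell cycle and replication genes 5 and 2 did so, of 38 genes of p53 response and apoptosis 1 and 1, of 68 splicing and mRNA export genes 3 and 1, and of 46 proteasome subunits 0 and 4. Stress and xenobiotic lists had 2 and 4 of 41 antioxidant genes, 2 and 5 of 39 xenobiotic genes, 4 and 5 of 65 folding and chaperone genes and 4 and 3 of 35 immediate-early genes. Metabolic lists had 3 and 8 of 68 lipid and PPAR genes (8 and 3 with 15 libraries), 6 and 3 of 38 cholesterol genes and 4 and 3 of 59 glycolysis and citric acid cycle genes. For 48 junction genes the counts were 6 and 8, for 58 genes of cilium assembly 2 and 6 and for 16 oocyte genes 1 and 2. The cilium counts were 3 and 0 with all 18 libraries, where the median turned from -0.12 to 0.13, and 2 and 17 with 15. ttbk2a, a kinase that starts cilium assembly in mammals, had the smallest p of the cilium list, -0.85 ± 0.23 with adjusted p = 0.314. cldn15la, a claudin of tight junctions, had -5.65 without PFOS and -0.28 and 0.02 at the other doses, an average of -1.97 ± 0.42 with adjusted p = 0.132. That value without PFOS stands beside the gut, kidney and pancreas transcripts in control replicates 1 and 3, whose part in it was not tested.

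**Figure D3:**
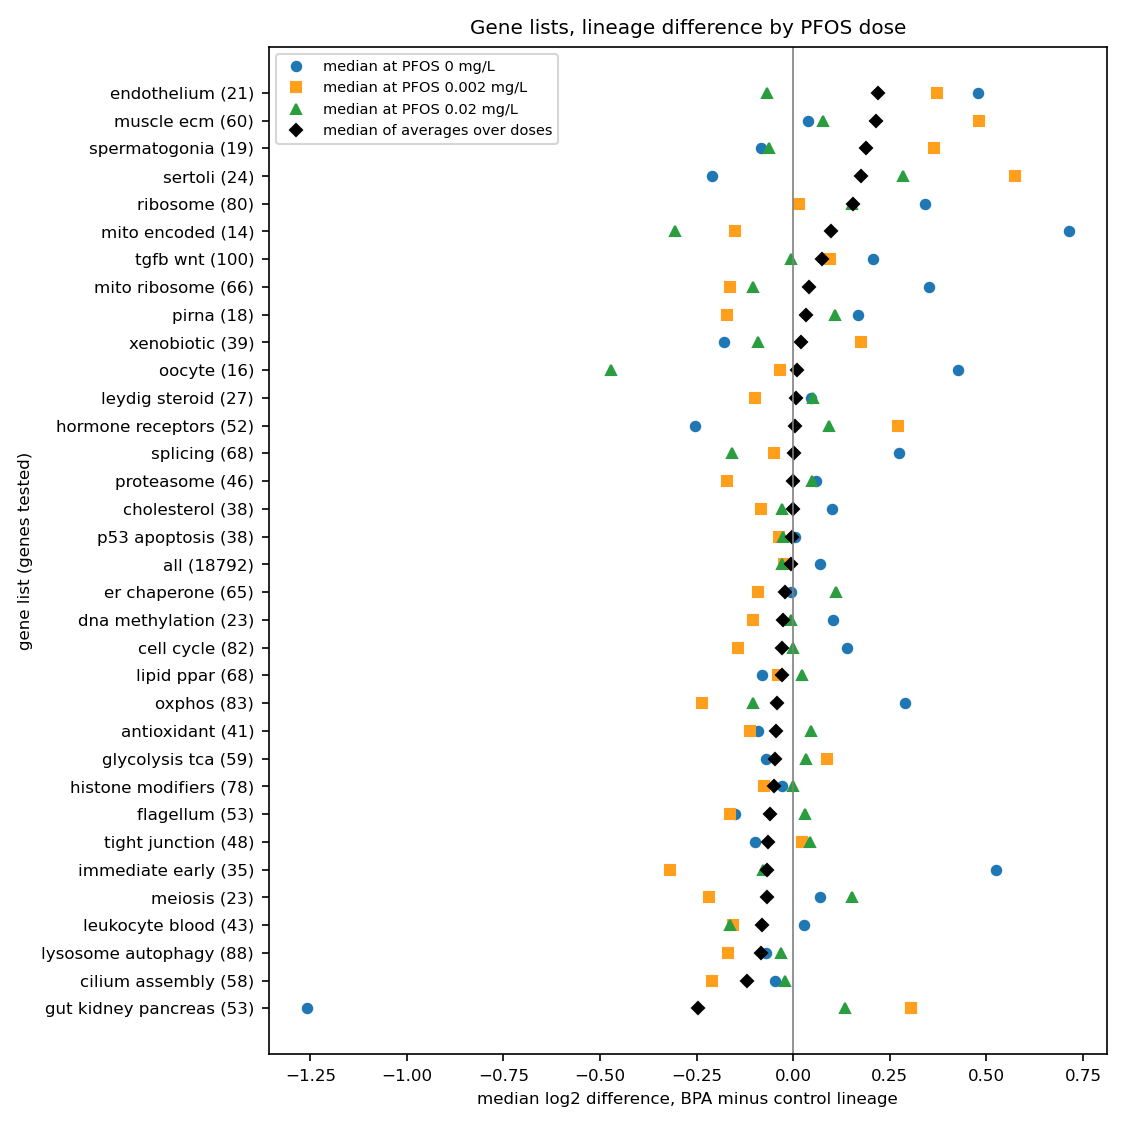
Median log2 difference between the BPA and control lineages (x axis) for each of 33 gene lists and for all genes, with the number of genes tested in parentheses, at each PFOS dose and for the average over doses. Medians of averages lie between -0.25 and 0.22. The ribosome list and the muscle and matrix list have positive medians at all doses, with some close to zero, while gut, kidney and pancreas genes lie at -1.26 without PFOS.

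At single doses the number of calls differed widely. Without PFOS 1927 genes (10.3%) were called between the lineages, 806 higher and 1121 lower in the BPA lineage. At 0.002 mg/L 0 genes were called by limma, with 1583 at an unadjusted p under 0.05, and at 0.02 mg/L 4 were called, with 2270. Of the 1927 genes, 1306 (67.8%) had the opposite sign at both PFOS doses and 100 (5.19%) kept one direction. The 1927 calls depended on which libraries were used: there were 4 with all 18 libraries. The library added there belongs to the control group at 0.002 mg/L. The group means and the differences without PFOS are therefore the same in both fits. Only the spread estimated from all groups together, and with it the p-values, changed. The fit from 15 libraries leaves 1 control library without PFOS, so it cannot decide whether the 1927 calls hold. The part of the gut, kidney and pancreas transcripts in these calls was not tested.

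Over all genes, the difference without PFOS tended to run opposite to that at 0.02 mg/L, and only weakly so to that at 0.002 mg/L. In 8667 genes (46.1%) its sign was opposite to that at both PFOS doses, and 18.4% kept one direction throughout. Taken over the 18792 genes tested, whose values are not independent of each other, the Pearson correlation of the difference at 0 with that at 0.002 mg/L was -0.139 and with that at 0.02 mg/L -0.407. The differences at 0.002 and 0.02 mg/L correlated at 0.384. Each dose has its own libraries, so no control is shared between these values, although all libraries were scaled together. With 15 libraries the first of these correlations was -0.116 and the second -0.395, 42.3% of genes had the opposite sign and 22.2% kept one direction.

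**Figure D4:**
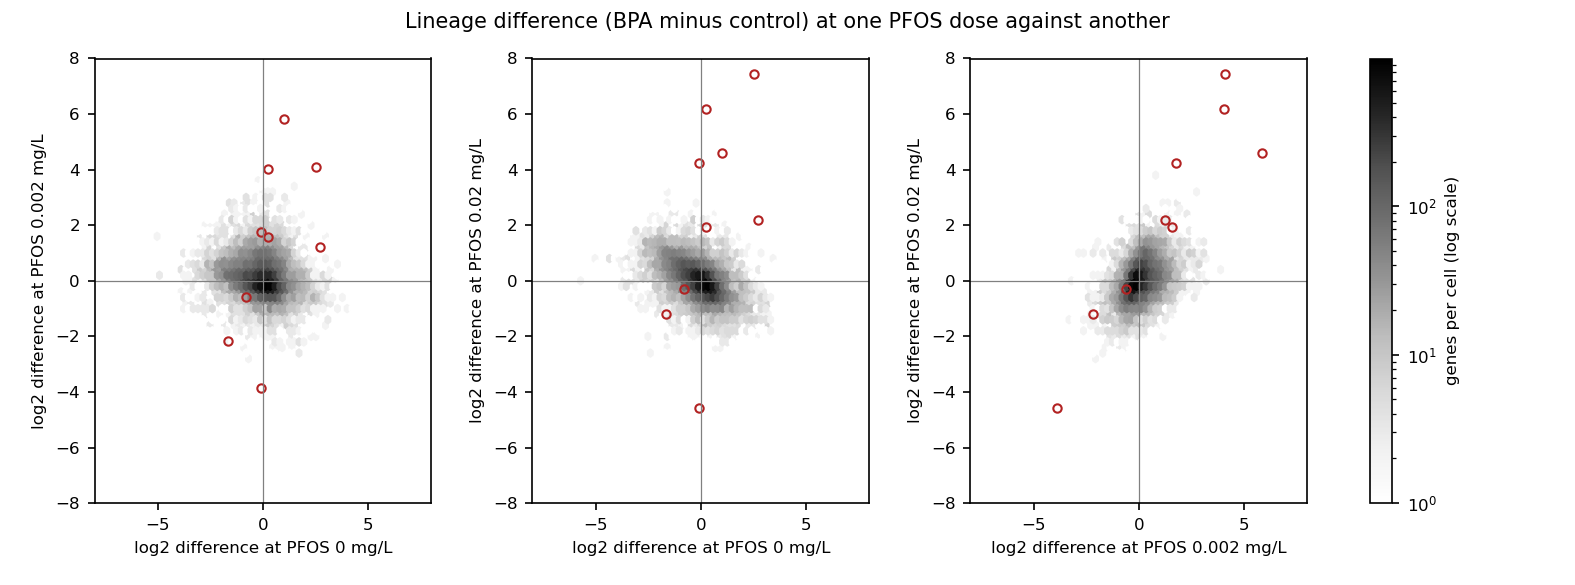
Log2 lineage difference at one PFOS dose against that at another, over 18792 genes, with darker cells holding more genes and red circles for the 9 genes called on average. The cloud tilts downward for 0 against 0.02 mg/L (r = -0.407) and upward for 0.002 against 0.02 mg/L (r = 0.384), and most circles lie far from the centre at both PFOS doses.

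The limma F test that the lineage difference is the same at all doses called 1578 genes (8.40%), of which 4 kept one direction. This test picks genes whose dose-specific differences disagree, so a low count with one direction is no separate result. From all 18 libraries it called 56, and from 15, with 1 control library left without PFOS, it called 2. The members of the lists with the smallest p in this test, chosen after their values were seen, had opposite signs without PFOS and at 0.02 mg/L. rfx2, a transcription factor of cilium genes needed for sperm formation in mice, was at 265, 120 and 344 normalized reads in the BPA lineage without PFOS and at 2666, 1814 and 1964 in the control lineage. At 0.002 mg/L rfx2 was at 688, 676 and 398 against 572 and 493, and at 0.02 mg/L at 1049, 863 and 853 against 414, 474 and 157. The BPA libraries thus lay below the controls without PFOS, overlapped them at 0.002 mg/L and lay above them at 0.02 mg/L. The difference in rfx2 was -3.25, 0.10 and 1.54, F test adjusted p = 0.00182, and 0.0442 with 18 and 0.0794 with 15 libraries.

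amh, anti-Müllerian hormone, a Sertoli cell signal that restrains germ cells in fish, crossed over in the same way at its more abundant locus. It had 7719 ± 682 normalized reads (SD, n = 3) in the BPA lineage without PFOS, 14140 ± 1634 at 0.002 mg/L and 20577 ± 3177 at 0.02 mg/L. In the control lineage amh had 22158 ± 5839 (n = 3), 14193 ± 1208 (n = 2) and 9662 ± 4046 (n = 3). The differences were -1.49, -0.01 and 1.17, and the average of -0.11 ± 0.15 had an adjusted p of 0.873. The other amh locus did not show such a rise in the BPA lineage. Over all doses it ran from 1293 to 1958 normalized reads there and from 892 to 1880 in the control lineage.

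Other genes chosen in this way had the same order of signs. The shares called for dose were 9.43% of 53 flagellum genes, 13.4% of 82 cell cycle genes and 15.5% of 58 cilium assembly genes. They were 7.69% of 52 nuclear receptors and 4.17% of 24 Sertoli cell genes, against 8.40% of all genes. List medians by dose were -0.15, -0.16 and 0.029 for flagellum genes and 0.14, -0.14 and -0.0019 for cell cycle genes. For cilium assembly genes they were -0.047, -0.21 and -0.021. rsph10b, a radial spoke protein of the flagellum, had -1.37, 0.42 and 1.29, and cfap43, another flagellum protein, -1.48, 0.29 and 1.15. racgap1, which acts in cytokinesis, had -2.82, 0.16 and 1.1, and pold1, the catalytic subunit of DNA polymerase delta, -1.66, 0.25 and 1.0. rxrbb, a retinoid X receptor, had -1.74, 0.28 and 1.337, and wdr60, a subunit of the dynein of intraflagellar transport, -1.46, 0.40 and 1.02. slc22a2, an organic cation transporter, had the reverse order with 1.98, -0.16 and -1.30. All had an F test adjusted p between 0.00182 and 0.00500 from 17 libraries and above 0.05 from 15, from 0.0755 for racgap1 to 0.119 for wdr60 there. Their differences without PFOS were of similar size there, for example -3.02 in rfx2, -3.06 in racgap1 and 2.07 in slc22a2. From all 18 libraries the adjusted p was below 0.05 for rfx2, racgap1 and rxrbb.

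**Figure D5:**
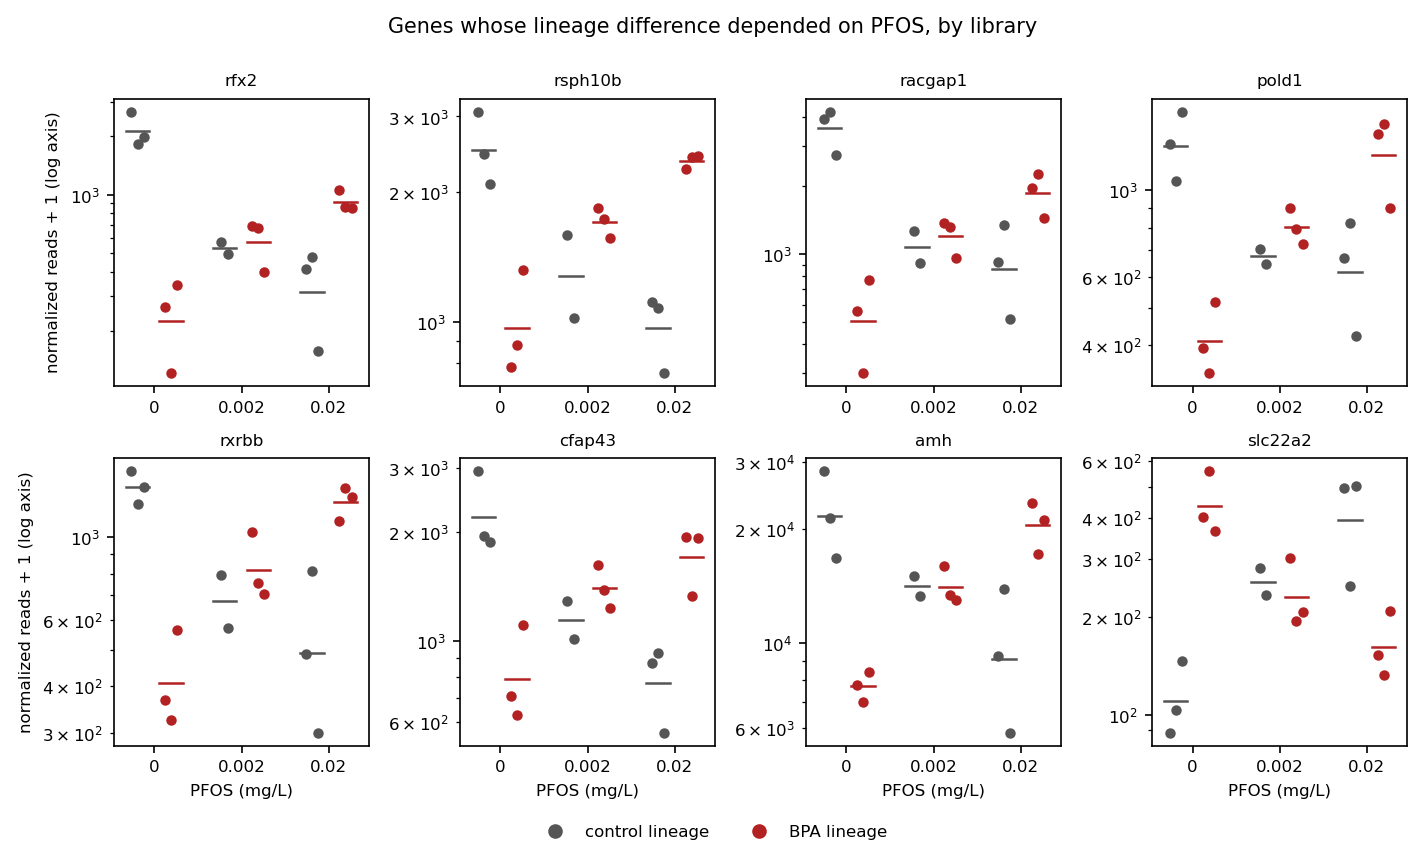
Normalized reads + 1 (log axis) against PFOS concentration for 8 genes whose lineage difference depended on dose, each point a library and each bar a group mean of the log values. In 7 genes the red BPA points lie below the grey control points without PFOS and above them at 0.02 mg/L, and in slc22a2 the order is reversed.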

How the data were processed

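RNA sequencing covered 18 medaka testis libraries. Per the labels' protocols, RNA was extracted with a Zymo kit that isolates RNA and DNA together and Novogene prepared libraries with the NEBNext Ultra II RNA chemistry. Per the submitters' processing notes, fastp 0.23.2, STAR 2.7.7a and DESeq2 1.34.0 were used. Which genome build, annotation, counter and strandedness were used is not given in the sources used here; overlapping, antisense and near-identical genes are uncertain for that reason. The deposited signal values hold, for each gene, the read count after division by a library's size factor: 100% of them were whole multiples of 1 step per library within a tolerance of 0.01, which gave back whole reads. The table lists 22941 genes, 14992 with a symbol, and 18792 had a mean of at least 10 over the 18 libraries.

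With limma 3.58.1 (R 4.3.3), log2(value + 1) of 17 libraries was modelled by 6 group means, using the intensity trend and robust option of its moderation. The average of the 3 dose-specific differences was tested two-sided with Benjamini-Hochberg adjustment over all genes and a threshold of 0.05, and an F test with 2 degrees of freedom asked whether the difference varied with dose. Such a difference understates the change of genes with low values. The fit was tested on simulated data. Alternatives were edgeR 4.0.16 and DESeq2 1.42.0 on recovered reads, other scalings, filters and sample sets, and leaving out each library. Named genes had to pass, keep one direction, carry a symbol and reach a mean of 50; as fewer than 5 did, the 10 with the smallest p per direction are given, with genes whose lineages did not overlap. The members, the 33 gene lists and the tests were chosen with earlier results of these data known. The results for 1 gene are left out here.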

Additional observations from a re-analysis of the deposited data

Results flagged for a closer look

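The lineage difference varied with PFOS dose in 1578 genes by the limma F test, so the average over doses stands beside opposite differences for many genes. For ENSORLG00000000970, called in the average, the F test had an adjusted p of 0.0359, with a positive difference at all doses. In the library that was not used, labelled control lineage PFOS 0.002 mg/L replicate 2, the summed oocyte and ovary list reached 981113 normalized reads, against 4071 to 12987 in the other 17.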

How the results depend on the processing

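None of the 30 genes refitted under each alternative (the 20 with a symbol, the 8 other called genes, retsat and trim55b) changed sign. They were chosen from the same libraries that most alternatives reuse, so a kept sign is no separate support. Other genes in the text were not refitted there. The 9 genes called on average became 5 with all 18 libraries, 4 with the replicate number as a block, 158 with DESeq2 and 1 with lineage and dose as additive terms, and 3 to 36 on leaving out 1 library. The lowest was without BPA 0.002 mg/L replicate 2 and the highest without control 0 mg/L replicate 2. The 8 of these with one direction became 4 with all 18 libraries, 5 with a pseudocount of 5, 4 with the block, 5 with edgeR, 131 with DESeq2, 1 with additive terms and 5 with 15 libraries, and 3 to 28 on leaving out 1 library. The 1578 genes whose difference varied with dose became 56 with all 18 libraries, 865 without trend and robust moderation, 1020 with the block, 3066 with DESeq2 and 2 with 15 libraries, and 356 to 3069 on leaving out 1 library, without BPA 0 mg/L replicate 2 and without BPA 0.02 mg/L replicate 3. The 3 genes whose lineages did not overlap became 1 with all 18 libraries and 18 with 15, and 3 to 9 on leaving out 1 library, alternatives chosen after seeing the data. The genes called were not always the same ones. With all 18 libraries the 5 called on average were all among the 9. Without trend and robust moderation 8 were called, of which 4 were among the 9. On leaving out BPA 0 mg/L replicate 1, 9 were called with one direction, of which 3 were among the 8. The causes of these changes were not tested. Same-numbered deviations of the lineages correlated at -0.085 to 0.31, with 0.23, 0.31 and 0.090 at 0.02 mg/L. Differently numbered libraries were not set beside them, so whether replicate numbers pair the libraries was not tested. The block results rest on the numbers alone. ENSORLG00000000970 was called in all 30 alternatives, rtn4rl2b in 12, ENSORLG00000025978 in 15, ENSORLG00000007856 in 11 and ENSORLG00000018220 in 8. With 2 or 3 libraries a group, differences under the spread between libraries were not detectable.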
